A study of Mus musculus with 6 samples.

Results

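The heat shock and chaperonin genes of kidney medulla cells sorted as intercalated cells were described after ischemia-reperfusion injury (IRI). The set holds the cytosolic HSP70, HSP110 and HSP90 chaperones, the class A and B J-domain proteins, the BAG proteins, 5 further HSP90 co-chaperone genes, the cytosolic chaperonin TRiC, the small heat shock proteins, the mitochondrial chaperonin and the heat shock factors Hsf1 and Hsf2. Members were taken by gene symbol alone, with the endoplasmic reticulum genes Hspa5, Dnajb9 and Dnajb11 left out, a rule that uses no measured value. The rule found 67 of the 37583 genes listed. They carry 66 symbols, because Hspa14 stands under 2 gene identifiers, and 3 of them are pseudogenes.

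Libraries came from the renal medulla of 12-week-old B1 VATPase EGFP transgenic mice, in which EGFP marks intercalated cells, the acid-base transporting cells of the collecting duct. The IRI group (3 libraries) was taken 2 h after renal ischemia-reperfusion and the sham group (3 libraries) 2 h after sham surgery. Mice of both groups carried the same transgene, EGFP-positive cells were sorted in 2 rounds, and each library pooled 4 kidneys of 2 mice. Nothing in the labels says that libraries of 1 group were made in independent experiments, and the p-values below therefore reflect only how far these pools differ, which may be technical. The genotype entry of the labels also names CX3CR1 as controlling EGFP, and the tissue entry reads epididymis.

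Chaperones hold unfolded or partly folded proteins and use ATP to release them for folding. HSP70 works with J-domain proteins, which deliver clients and start ATP hydrolysis, and with nucleotide exchange factors of the HSP110 and BAG families, which let the client go. HSP90 takes clients later and is steered by co-chaperones, small heat shock proteins hold unfolding proteins without ATP, and TRiC folds actin and tubulin inside a closed chamber. Heat shock factors activate many of these genes under stress by binding inverted repeats of GAA, the heat shock element.

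The heat shock element is the sequence feature these genes are best known to share, so the promoters that hold it are shown first. RefSeq promoter windows (GRCm38.p6, 250 bases before to 50 after a transcription start) were matched for 54 of the 66 symbols. Both strands were searched for 3-unit forms (GAA-NN-TTC-NN-GAA and TTC-NN-GAA-NN-TTC, written unbroken in the genome, with N any base) and their 2-unit forms (GAA-NN-TTC and TTC-NN-GAA); every 3-unit match contains 2-unit matches. A 3-unit match lay in the windows of 5 of the 54 members (9.26%), against 0.662% of the 27025 genes with a window. A 2-unit match lay in 20 members (37%), against 17% of all genes. The 5 members were Chordc1, Dnajb6, Hsph1, Hspd1 and Hspe1. Each match is shown with its flanks, read along the gene's own strand and with the matched letters in capitals. The Hspe1 stretch (chr1:55088053-55088081, plus strand) lies between Hspe1 and Hspd1, which start 215 bases apart on opposite strands, and serves as the match of both. The others are Dnajb6 (chr5:29735844-29735872, plus strand), Chordc1 (chr9:18292260-18292288, plus strand) and Hsph1 (chr5:149636281-149636308, minus strand). The match spans the start in Chordc1 (-4 to 19), lies after it in Hsph1 (16 to 28) and before it in Dnajb6 (-46 to -34), and all 4 stretches overlap an exon of some GENCODE M21 transcript.
Hspe1: ggtccgTTCTAGAACCTTCCGGAAggccc
Dnajb6: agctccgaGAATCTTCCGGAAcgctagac
Chordc1: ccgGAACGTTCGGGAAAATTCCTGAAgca
Hsph1: gctgcagaTTCTGGAAAGTTCtcctcag

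Of these 5, 1 was higher after IRI (Dnajb6), 1 was lower (Chordc1) and 3 did not pass the test. Among members with a window, a 3-unit match lay in 1 of the 12 called higher, in 1 of the 6 called lower and in 3 of the 27 tested and not called. The 2-unit forms lay in 6, 2 and 10 of them. The stress-inducible genes shown next held 2-unit matches only: Hspb1 (chr5:135887794-135887843, plus strand), Hspa1b (chr17:34959309-34959358, minus strand) and Hspa1a (chr17:34972227-34972276, minus strand). They are shown because Hspb1 had the largest fold change of the set and because the stretches of Hspa1a and Hspa1b are identical, and none of the 3 overlaps an annotated exon. A match says that the letters are present, not that a factor was bound.
Hspb1: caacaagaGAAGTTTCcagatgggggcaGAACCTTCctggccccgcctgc
Hspa1b: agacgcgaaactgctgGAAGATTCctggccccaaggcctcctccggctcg
Hspa1a: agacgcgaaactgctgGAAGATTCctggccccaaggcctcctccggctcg

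After IRI, Hspb1, Dnajb1, Bag3, Hsp90aa1, Hspa4 and Hspa4l rose, the HSP90 co-chaperones Ahsa1, Chordc1 and Fkbp4 fell, and no TRiC subunit passed the test in either direction. Of the 67 members, 55 had enough reads to be tested and 12 did not. Of the 55, 15 were higher (27.3%) and 7 lower (12.7%) in IRI than in sham, by edgeR's quasi-likelihood test at a Benjamini-Hochberg adjusted p under 0.05 over all 13881 genes tested. Over all those genes, 24.2% were higher and 21.2% lower, 45.5% in either direction, so the members' 40% is not above the background. All 3 IRI libraries lay above all 3 sham libraries for 18 members and below them for 10, against 27.6% and 29.1% of all genes, 56.8% in either direction. The median log2 fold change, IRI over sham, was 0.11 over the 55 members and 0.000381 over all genes, and the median size of the change was 0.37, against 0.48 over all genes. At least 2-fold changes were found for 8 members in the higher and 1 in the lower direction, and for 1591 and 1180 of all genes. Because these are bulk samples, fewer cells of a type and less RNA per cell cannot be told apart.

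**Figure D1:**
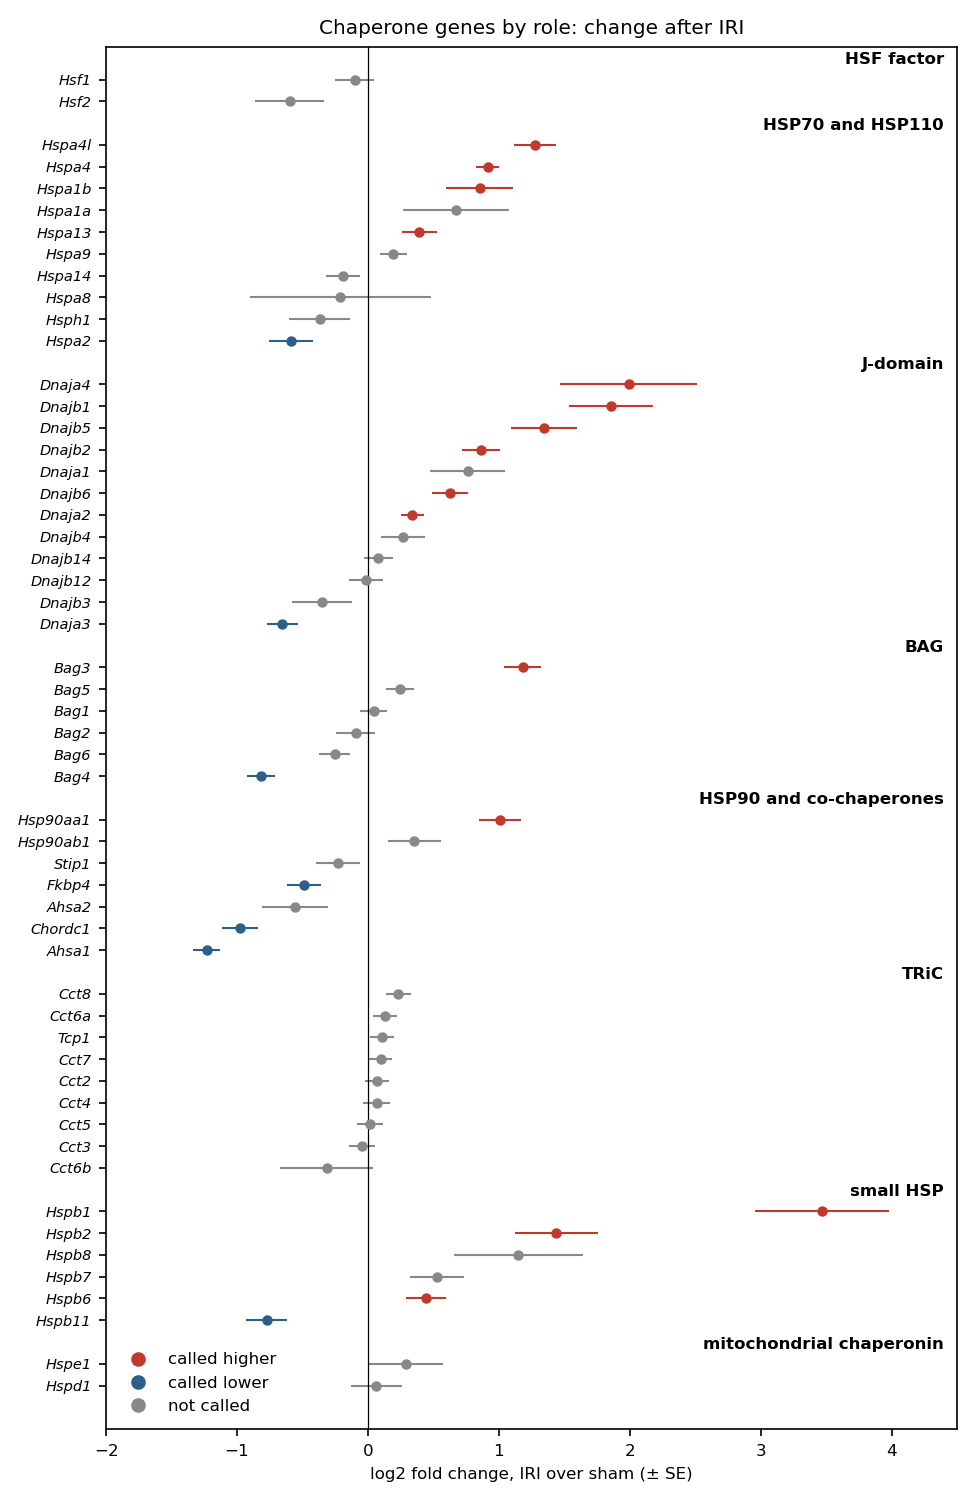
Log2 fold change, IRI over sham, with its standard error for the tested members, pseudogenes aside, grouped by role (n = 3 libraries each). Red genes were called higher, blue genes lower, and grey genes did not pass; Hspb1 lies farthest right at 3.47 and Ahsa1 farthest left at -1.23.

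Levels are given as the deposited RPKM, reads scaled by gene length and library total. The total of reads in genes ranged from 22478011 to 24245330 in IRI libraries and from 17421669 to 23061108 in sham libraries, and members took 0.773% to 0.942% of them in IRI and 0.771% to 0.953% in sham. Calls among the marker genes below stand against 24.2% of all genes higher and 21.2% lower. The 8 intercalated cell markers summed to 10480 to 12390 RPKM in IRI and 9890 to 12740 in sham. Of them, 1 was called, Atp6v1b1, which was lower (log2 fold change -0.37, adjusted p = 0.0427, edgeR). Principal cell markers summed to 3877 to 7904 RPKM in IRI and 8142 to 8731 in sham (1 of 5 tested, Aqp3, was lower). Most of this was Aqp2, at 6414, 2922 and 4478 RPKM in IRI libraries 1, 2 and 3, against 6974, 6680 and 6480 RPKM in sham. The mean of Aqp2 in sham (6711 RPKM) was above that of Car2 (5363 RPKM), the highest intercalated cell marker. In IRI it was below (4605 against 5289 RPKM). The sorted pools thus held principal cell transcripts beside those of intercalated cells. Among IRI libraries, IRI 1 was the highest for Aqp2, Fxyd4 and Scnn1b, and IRI 3 for Aqp3 and Scnn1g. Thick ascending limb markers summed to 299 to 494 RPKM in IRI and 437 to 692 in sham. Of these 6, 1 was lower, Kcnj1, with a log2 fold change of -2.34. Proximal tubule markers stayed at or below 2.10 RPKM in sum in every library (1 of 3 tested, Lrp2, was lower). Macrophage and dendritic cell markers summed to 94.99 to 167 RPKM in IRI and 28.5 to 157 in sham (2 of 6 tested were higher), and Cx3cr1 had 1 read in all IRI libraries and 1 in all sham libraries. Endothelial markers summed to 0.469 to 1.14 RPKM in IRI and 0.0235 to 0.450 in sham (1 of 3 tested, Flt1, was higher). Neutrophil markers reached 8.10 RPKM in IRI and 0.128 in sham, none passed the filter on low counts, and Elane was at 0 in every library. Of 7 epididymis markers, Lcn5, Lcn8 and Spink11 were at 0 in all libraries, and the sum was 11.3 to 27.6 RPKM in IRI and 24.6 to 41.4 in sham. Of 15 immediate-early genes that tissue dissociation is also known to raise, 11 were higher and none lower (all genes 24.2% and 21.2%). Their sums were 2056 to 2879 RPKM in IRI and 848 to 1165 in sham. The part of these other cells and of dissociation in the results below was not tested.

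Neither heat shock factor passed the test. Hsf1, the main stress-activated factor, had 20.2, 19.5 and 14.7 RPKM in IRI libraries 1, 2 and 3, against 23.2, 18.7 and 17.9 RPKM in sham libraries 1, 2 and 3. The groups overlapped, and the log2 fold change was -0.10 ± 0.15 (SE; adjusted p = 0.617, edgeR). Hsf2, a related factor expressed at lower levels, had 1.97, 1.29 and 2.39 RPKM in IRI and 2.64, 3.70 and 2.44 RPKM in sham. All IRI values were below all sham values, IRI 3 by little, with a log2 fold change of -0.60 ± 0.27 (adjusted p = 0.0965). Without IRI 3 the Hsf2 change was -0.81 and passed the test (adjusted p = 0.0469), as it did with library size alone (-0.79, adjusted p = 0.0376). At an unadjusted p under 0.05, 0 of the 2 factors passed, and DESeq2 and limma-voom called neither.

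Of 14 HSP70 and HSP110 genes, 10 were tested, 4 were higher and 1 was lower (all genes 24.2% and 21.2%). The largest changes were in the HSP110-type exchange factors. Hspa4 (ENSMUSG00000020361), which releases nucleotide from HSP70, had 33.4, 32.6 and 31.0 RPKM in IRI, against 17.8, 17.98 and 17.0 RPKM in sham. The libraries of each group lay close together and the groups were far apart, with a log2 fold change of 0.91 ± 0.09 (adjusted p = 7.32e-05), a 1.88-fold increase. Hspa4l, its close paralog, had 11.1, 10.1 and 10.02 RPKM in IRI and 5.60, 3.62 and 3.98 RPKM in sham. It rose by 1.27 ± 0.16 on the log2 scale (adjusted p = 0.000337), although sham 1 stood above the other sham libraries. Hsph1, a further HSP110 gene, did not pass the test. It had 11.7, 14.5 and 13.1 RPKM in IRI and 24.5, 13.9 and 13.8 RPKM in sham. Its groups overlapped, sham 1 alone was high, and the log2 fold change was -0.37 ± 0.23 (adjusted p = 0.229), or -0.07 without sham 1.

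Of the stress-inducible HSP70 pair, 1 gene passed the test. Hspa1b had 52.4, 110 and 66.5 RPKM in IRI, against 40.9, 45.02 and 44.0 RPKM in sham. All IRI libraries were above all sham libraries, IRI 2 by far the most, and the log2 fold change was 0.86 ± 0.26 (adjusted p = 0.0293). Its neighbour and near-identical copy Hspa1a had 34.3, 101 and 47.5 RPKM in IRI and 34.4, 41.6 and 42.1 RPKM in sham. IRI 1 lay at the bottom of the sham range, and the log2 fold change of 0.67 ± 0.41 did not pass (adjusted p = 0.230). The Hspa1b call was lost without sham 1, 2 or 3 (adjusted p = 0.0895, 0.0800 and 0.0808), although its change stayed at 0.79, 0.88 and 0.83. Without IRI 2 the change of Hspa1b was 0.47 and still passed (adjusted p = 0.0246). With all libraries, its call was lost with library size alone (adjusted p = 0.0505) and with every gene with a read (0.116). Hspa1a passed without IRI 1 (0.97, adjusted p = 0.0498) but was at 0.07 without IRI 2 (adjusted p = 0.768). Their transcripts share 62.3% (Hspa1b) and 66.3% (Hspa1a) of their 50-base stretches with other annotated genes. Reads not aligned uniquely were left out, so the levels of both are uncertain.

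Hspa8, the constitutive HSP70, varied more between libraries of a group than between groups. It had 27.7, 44.0 and 41.1 RPKM in IRI, against 90.0, 14.3 and 29.7 RPKM in sham. Sham 1 was the highest and sham 2 the lowest of all 6 libraries, and the log2 fold change was -0.21 ± 0.69 (adjusted p = 0.829). Without sham 1 it was 0.79 (adjusted p = 0.124). Of its 50-base stretches, 39.4% also occur in other genes, 16 in number. Hspa2, an HSP70 best known from the testis, had 5.10, 3.59 and 4.87 RPKM in IRI and 7.70, 6.74 and 6.49 RPKM in sham, and every IRI value was below every sham value. It fell by 0.59 on the log2 scale (SE 0.17, adjusted p = 0.0185), a call lost without IRI 2 (adjusted p = 0.0506) or without sham 1 (0.0576).

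Hspa13, an HSP70-like ATPase of the microsomes, averaged 5.06 ± 0.49 RPKM in IRI and 3.95 ± 0.46 RPKM in sham (SD, n = 3 each). It rose by 0.39 ± 0.13 (adjusted p = 0.0405), and leaving out IRI 2, IRI 3, sham 2 or sham 3 ended the call (adjusted p = 0.0999, 0.110, 0.142 and 0.150). Hspa9, the HSP70 of the mitochondrial matrix, had the highest deposited RPKM of the group. It averaged 142 ± 8.75 RPKM in IRI and 127 ± 8.24 RPKM in sham (log2 fold change 0.19 ± 0.10, adjusted p = 0.148). Hspa8, Hspa1a and Hspa1b share more of their transcript stretches with other genes (39.4%, 66.3% and 62.3%) than Hspa9 does (2.81%). Reads not aligned uniquely were left out, so the levels of Hspa8, Hspa1a and Hspa1b may be too low. The rank of Hspa9 is therefore uncertain. Hspa14, a ribosome-associated HSP70, averaged 4.18 ± 0.54 RPKM in IRI and 4.88 ± 0.45 RPKM in sham (-0.19 ± 0.13, adjusted p = 0.273). With library size alone in edgeR, Hspa14 was called lower (-0.39, adjusted p = 0.0382). Its second identifier had no read in any library. Hspa12a, Hspa12b and Hspa1l fell below the filter, with 9, 10 and 5 reads in all IRI libraries and 39, 1 and 17 reads in all sham libraries. Summed over the group, HSP70 and HSP110 genes reached 337, 464 and 359 RPKM in IRI and 352, 288 and 290 RPKM in sham, and the groups overlapped.

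J-domain proteins held 6 higher genes and 1 lower gene among the 12 tested of 15 (all genes 24.2% and 21.2%). Dnajb1, the J-domain partner of inducible HSP70, had 95.9, 242 and 186 RPKM in IRI, against 53.2, 44.2 and 51.3 RPKM in sham. Every IRI library exceeded every sham library, IRI 1 by the least, and the log2 fold change was 1.86 ± 0.32 (adjusted p = 0.00376). Dnaja4, a class A J-domain protein, had 7.80, 32.3 and 24.3 RPKM in IRI and 6.29, 4.76 and 5.59 RPKM in sham. IRI 1 lay just above the sham range and IRI 2 and 3 well above it, with a log2 fold change of 1.99 ± 0.52 (adjusted p = 0.0255). That call was lost when IRI 2 (1.55, adjusted p = 0.0511), IRI 3 (0.0783) or sham 1, 2 or 3 (0.0515, 0.0993 and 0.0830) was left out. Exons of Dnaja4 overlap those of Wdr61 on the other strand over 44.1% of their bases. The counts were made without strand, so reads from the shared bases cannot be told apart.

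Dnajb5, a class B protein of low level, had 2.24, 1.78 and 2.24 RPKM in IRI, against 0.618, 1.14 and 0.766 RPKM in sham. The groups did not overlap, and it rose by 1.34 ± 0.26 on the log2 scale (adjusted p = 0.00279). Dnajb2, which also binds ubiquitin chains, had 24.4, 33.2 and 26.8 RPKM in IRI and 14.1, 16.6 and 17.0 RPKM in sham. It rose by 0.86 ± 0.15 (adjusted p = 0.00166), again with all IRI libraries above all sham libraries. Dnajb6, a suppressor of protein aggregation whose promoter holds the 3-unit match shown above, averaged 5.70 ± 0.82 RPKM in IRI and 3.79 ± 0.07 RPKM in sham (SD, n = 3 each) and rose by 0.63 (adjusted p = 0.00546). Dnaja2, a housekeeping class A protein, averaged 92.6 ± 2.94 RPKM in IRI and 75.0 ± 1.84 RPKM in sham and rose by 0.34 (adjusted p = 0.0131), a call that ended without IRI 2, sham 2 or sham 3 (adjusted p = 0.0540, 0.0547 and 0.0715).

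Dnaja3, a J-domain protein of mitochondria, was the lower gene of the group. It had 32.9, 28.8 and 24.7 RPKM in IRI, against 47.9, 42.8 and 48.7 RPKM in sham, and the groups did not overlap. It fell by 0.66 on the log2 scale (SE 0.12, adjusted p = 0.00215). Dnaja1, the major class A partner of cytosolic HSP70, had 12.4, 22.5 and 24.8 RPKM in IRI and 15.4, 10.1 and 10.7 RPKM in sham. IRI 1 was below sham 1 and the other IRI libraries were above every sham library, with a log2 fold change of 0.76 ± 0.29 (adjusted p = 0.0685). Without IRI 1 the change of Dnaja1 was 1.02 and passed (adjusted p = 0.0046), as it did without sham 1 (0.95, adjusted p = 0.0447) and, with all libraries, by DESeq2 (0.76, adjusted p = 0.00757). Dnajb4, Dnajb12, Dnajb14 and Dnajb3 did not pass, with log2 fold changes between -0.35 and 0.27, and Dnajb4 passed without IRI 1 (0.45, adjusted p = 0.0142). Dnajb13 had 7 reads in all IRI libraries and 11 in all sham libraries, Dnajb7 had 1 and 9, and Dnajb8 had 0 in both.

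The summed level of the J-domain genes was 297, 497 and 420 RPKM in IRI, against 250, 224 and 243 RPKM in sham. Dnajb1 and Dnaja2 made up most of it, and the lowest IRI sum was above the highest sham sum.

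Of the 6 BAG genes, 1 was higher, 1 was lower and 4 did not pass the test (all genes 24.2% higher and 21.2% lower). Bag3, the stress-inducible member that links HSP70 to small heat shock proteins and to autophagy, had 33.7, 48.5 and 39.1 RPKM in IRI, against 18.3, 18.3 and 18.4 RPKM in sham. The sham libraries were nearly equal and the IRI libraries all higher, with a log2 fold change of 1.18 ± 0.14 (adjusted p = 0.000227), a 2.27-fold increase. None of its 50-base stretches occurs in another annotated gene. Bag4, also known as a silencer of death receptor signalling, had 9.59, 7.74 and 8.70 RPKM in IRI and 15.4, 16.6 and 15.1 RPKM in sham. It fell by 0.82 (SE 0.11, adjusted p = 0.000407), with every IRI library below every sham library.

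Bag1, an exchange factor that also binds the survival protein Bcl2, was the most abundant BAG gene. It had 474, 545 and 480 RPKM in IRI and 479, 501 and 513 RPKM in sham, and the groups overlapped (log2 fold change 0.04 ± 0.11, adjusted p = 0.767). Bag2, an inhibitor of the HSP70-bound ubiquitin ligase, averaged 36.2 ± 6.16 RPKM in IRI and 39.7 ± 5.81 RPKM in sham. Bag5, another exchange factor, averaged 18.7 ± 1.16 RPKM in IRI and 16.2 ± 1.37 RPKM in sham, and Bag6, which guards newly made membrane proteins, 4.69 ± 0.39 RPKM in IRI and 5.73 ± 0.48 RPKM in sham (SD, n = 3 each). None of these 3 passed edgeR's test, with log2 fold changes of -0.09, 0.25 and -0.25. Under other scalings in edgeR, Bag6 was called lower: -0.37 with the upper quartile (adjusted p = 0.0304) and -0.45 with library size alone (adjusted p = 0.0142). Because Bag1 dominates, the sum over the 6 BAG genes was 570, 660 and 595 RPKM in IRI and 577, 600 and 602 RPKM in sham, and the groups overlapped.

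**Figure D2:**
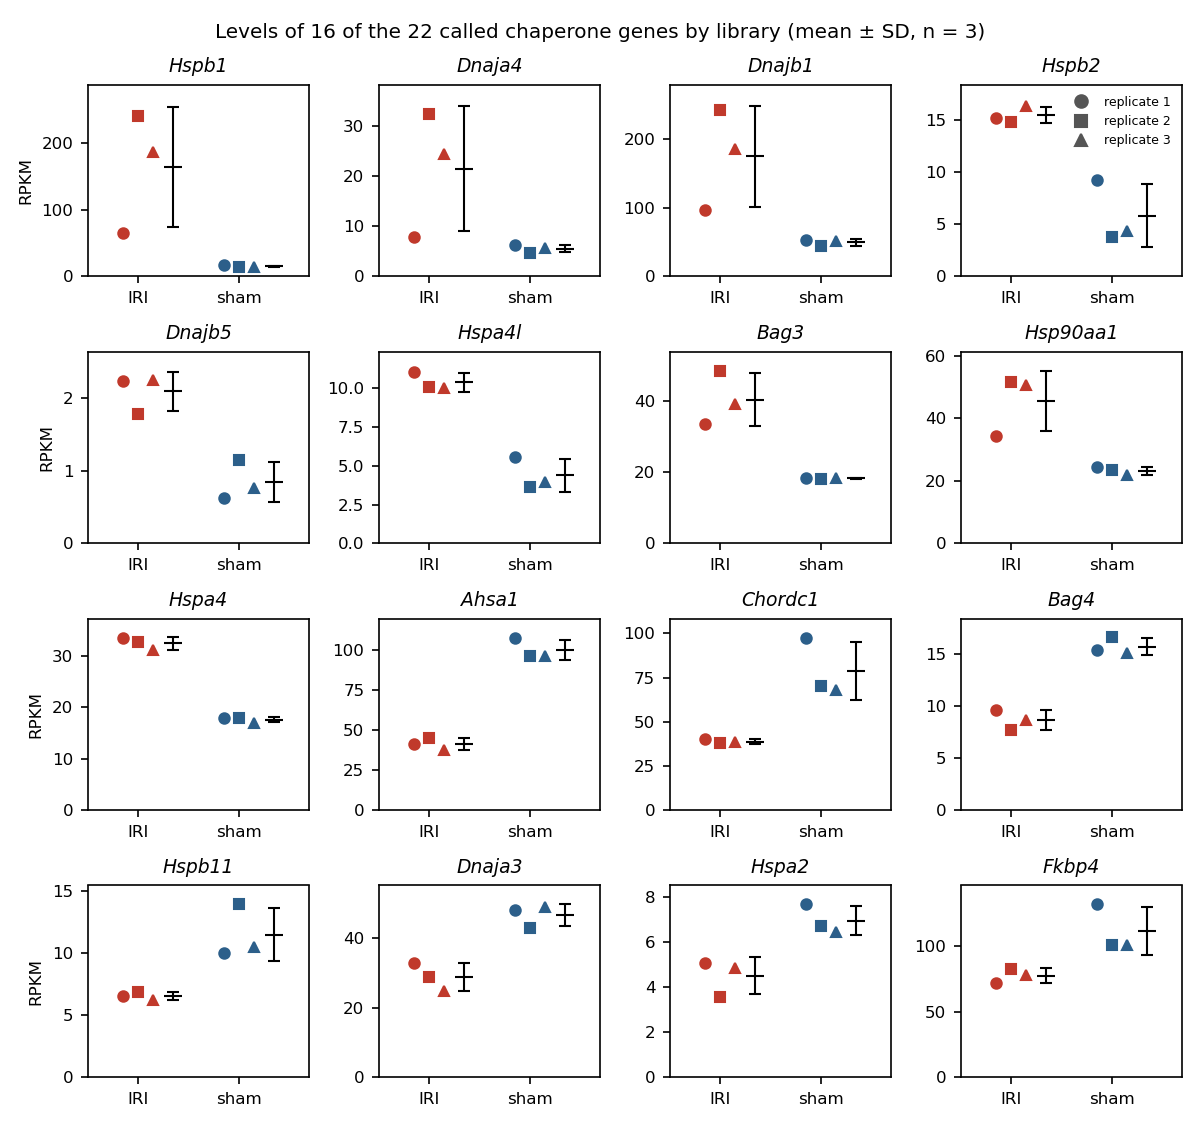
Deposited RPKM by library for 9 of the genes called higher and all 7 called lower, IRI left and sham right in each panel, with mean ± SD (n = 3 each) beside the points. Axes start at 0; for Hspb1, Dnaja4 and Dnajb1 the circle of IRI 1 lies below the other IRI libraries, and Bag3 is nearly level over sham.

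Of the 7 genes of HSP90 and its co-chaperones, 1 was higher, 3 were lower and 3 did not pass (all genes 24.2% higher and 21.2% lower). The higher gene was the inducible HSP90, and the 3 lower ones were co-chaperones. Hsp90aa1, the inducible HSP90, had 34.5, 51.6 and 50.6 RPKM in IRI, against 24.4, 23.6 and 21.8 RPKM in sham. All IRI libraries lay above all sham libraries, and the log2 fold change was 1.01 ± 0.16 (adjusted p = 0.00107). Hsp90ab1, the constitutive HSP90, had 418, 598 and 591 RPKM in IRI and 530, 335 and 426 RPKM in sham. The groups overlapped, and its log2 fold change of 0.35 ± 0.20 did not pass (adjusted p = 0.185). Of the 50-base stretches of Hsp90aa1, 47.5% also occur in other genes, chiefly predicted ones, against 3.44% for Hsp90ab1. Reads not aligned uniquely were left out, so the level of Hsp90aa1 may be too low.

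Ahsa1, the activator of the HSP90 ATPase, had the largest decrease of all members. It had 41.4, 45.2 and 38.0 RPKM in IRI, against 107, 96.4 and 96.5 RPKM in sham, so that every IRI level was under every sham level by a wide margin. It fell by 1.23 on the log2 scale (SE 0.10, adjusted p = 4.46e-05), and sham was 2.35-fold above IRI. Chordc1, an HSP90-binding protein whose promoter holds the longest match printed above, had 40.2, 38.0 and 38.4 RPKM in IRI and 97.3, 70.3 and 67.8 RPKM in sham. The IRI libraries were nearly equal, all were below sham, and sham 1 was the highest. Chordc1 fell by 0.98 (SE 0.14, adjusted p = 0.000667).

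Fkbp4, an immunophilin that carries steroid receptors with HSP90, had 71.9, 82.6 and 78.3 RPKM in IRI, against 132, 101 and 101 RPKM in sham. It fell by 0.49 (SE 0.13, adjusted p = 0.0151) with no overlap of the groups, and without IRI 1 the change was -0.42 and just missed the threshold (adjusted p = 0.0510). Stip1, the adaptor that hands clients from HSP70 to HSP90, had 67.2, 98.8 and 83.8 RPKM in IRI and 119, 85.7 and 95.5 RPKM in sham. The groups overlapped (log2 fold change -0.23 ± 0.17, adjusted p = 0.309). Ahsa2, a paralog of Ahsa1, averaged 6.63 ± 0.94 RPKM in IRI and 10.02 ± 3.77 RPKM in sham (SD, n = 3 each), with sham 1 at 14.3. Its change of -0.56 ± 0.25 did not pass (adjusted p = 0.109), but Ahsa2 was called without sham 2 (-0.75, adjusted p = 0.0402), by DESeq2 (-0.57, adjusted p = 0.0449) and with library size alone (-0.77, adjusted p = 0.0411), and 50.2% of its exon bases lie in other genes. Hsp90ab1 was the largest part of the sum over the group. That sum was 679, 922 and 887 RPKM in IRI and 1025, 719 and 818 RPKM in sham, and the groups overlapped.

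TRiC stood at nearly the same level in both groups. The ring holds 8 different subunits, encoded by Tcp1, Cct2, Cct3, Cct4, Cct5, Cct6a, Cct7 and Cct8. None of the 9 tested TRiC genes was called by edgeR, 1 (Cct8) had an unadjusted p under 0.05, and DESeq2 and limma-voom called none. The 8 subunit changes ran from -0.05 (Cct3) to 0.23 (Cct8) on the log2 scale, with standard errors of 0.09 to 0.10. Their 95% intervals together reached from -0.27 to 0.45, so that changes beyond these limits lie outside every subunit's interval. With scaling by the upper quartile or by library size alone, the small positive changes of Cct2, Cct4, Cct5, Cct7 and Tcp1 turned negative, as did Cct6a with library size alone, so no direction is given for them.

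Cct7 had the highest level, at 140, 144 and 139 RPKM in IRI and 140, 137 and 130 RPKM in sham. Cct6a had 134, 142 and 137 RPKM in IRI and 137, 127 and 123 RPKM in sham. Cct8 had 116, 128 and 118 RPKM in IRI and 110, 102 and 104 RPKM in sham, and it was the only subunit whose groups did not overlap. Cct5 had 107, 104 and 99.2 RPKM in IRI, against 114, 102 and 98.5 RPKM in sham. Cct2 had 74.8, 82.8 and 82.0 RPKM in IRI, against 79.6, 77.1 and 77.4 RPKM in sham. Cct4 had 62.0, 62.8 and 61.1 RPKM in IRI, against 68.1, 56.98 and 56.97 RPKM in sham. These 4 subunits form the middle of the order, and sham 1 was the highest sham library for each. Tcp1 had 51.5, 52.2 and 49.6 RPKM in IRI and 52.4, 47.1 and 46.8 RPKM in sham. Cct3 had 49.8, 48.7 and 43.6 RPKM in IRI and 54.1, 49.5 and 46.8 RPKM in sham, so Tcp1 and Cct3 exchanged places between libraries.

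Although the protein complex holds its subunits in equal number, the deposited RPKM of their transcripts were unequal. That order depends on the gene lengths used, which ran from 1584 bases for Cct6a to 4722 for Tcp1: by reads alone, Cct8 was highest (8137) and Cct2 lowest (3252) in IRI 1. The most abundant subunit exceeded the least abundant by 2.81, 2.96 and 3.20 times in the IRI libraries and by 2.67, 2.91 and 2.77 times in the sham libraries. The order was stable, with 4 of the 8 subunits at the same rank in all 6 libraries. Each subunit varied by only 3.52% to 8.56% over the 6 libraries (coefficient of variation). The spread among the 8 subunits was 40.1%, 41.4% and 41.7% in IRI, against 37.6%, 40.0% and 39.0% in sham. The IRI values were all above the sham values, by 2.22 percentage points on average, at the smallest p that an exact permutation test of 3 against 3 can give (p = 0.1, two-sided). Cct6b, the testis form of Cct6a, had 56 reads in all IRI libraries and 73 in all sham libraries (log2 fold change -0.32 ± 0.36), and Cct8l1 had 2 and 2.

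**Figure D3:**
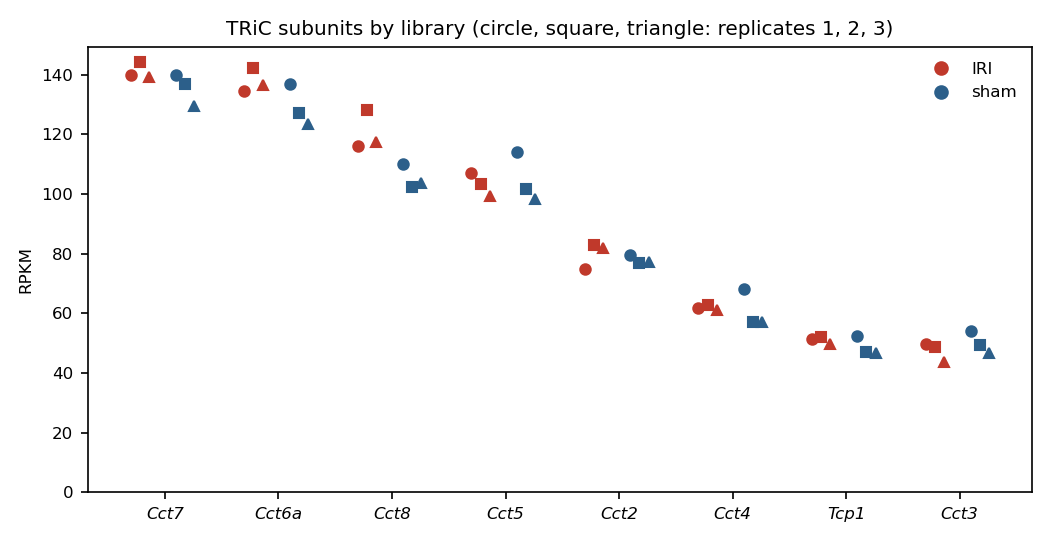
Deposited RPKM of the 8 TRiC subunits in each of the 6 libraries, IRI left of sham, ordered by level. The axis starts at 0; levels step down from Cct7 to Cct3, and only for Cct8 do all 3 IRI points lie above all 3 sham points.

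Small heat shock proteins held the largest increase of the set. Hspb1 (Hsp25), which binds unfolding proteins and actin filaments, had 64.7, 241 and 186 RPKM in IRI, against 16.4, 14.6 and 14.6 RPKM in sham. All IRI libraries were far above sham, IRI 1 the least so, and the log2 fold change was 3.47 ± 0.51 (adjusted p = 0.00314), an 11.1-fold increase. Hspb2, first described as a partner of a muscle kinase, had 15.2, 14.8 and 16.3 RPKM in IRI and 9.26, 3.78 and 4.38 RPKM in sham. It rose by 1.44 ± 0.32 (adjusted p = 0.00673), with sham 1 above the other sham libraries. Of the 50-base stretches of Hspb1, 50.1% also occur in other genes, mostly the pseudogene Hsp25-ps1. Hspb2 shares 30.2% of its exon bases with Cryab on the other strand, a gene that rose too. Without strand, reads from the shared bases cannot be told apart.

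Hspb8, which works with Bag3, had 3.80, 5.41 and 11.4 RPKM in IRI, against 4.86, 2.06 and 2.57 RPKM in sham. IRI 1 lay below sham 1, and the log2 fold change of 1.15 ± 0.49 did not pass (adjusted p = 0.0999). It passed without IRI 1 (1.45, adjusted p = 0.0471) and without sham 1 (1.58, adjusted p = 0.0451), and with all libraries by DESeq2 (1.14, adjusted p = 0.0121). Hspb6 (Hsp20) averaged 4.89 ± 0.57 RPKM in IRI and 3.69 ± 0.17 RPKM in sham (SD, n = 3 each) and rose by 0.44 (adjusted p = 0.0427), a call that ended whenever any library other than IRI 1 was left out (adjusted p of 0.0900 to 0.153). Hspb7, best known from heart muscle, averaged 3.28 ± 0.77 RPKM in IRI and 2.33 ± 0.25 RPKM in sham (log2 fold change 0.53 ± 0.20, adjusted p = 0.0606), and passed without IRI 3 (0.63, adjusted p = 0.0482).

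Hspb11, which despite its name is a component of the intraflagellar transport complex of cilia, was the lower gene. It had 6.51, 6.85 and 6.22 RPKM in IRI and 10.01, 13.9 and 10.4 RPKM in sham. It fell by 0.77 (SE 0.15, adjusted p = 0.00364) with no overlap. Hspb3 and Hspb9 had 3 and 4 reads in all IRI libraries and none in sham. The summed level was 98.6, 276 and 228 RPKM in IRI, against 46.3, 40.3 and 38.4 RPKM in sham. Hspb1 carried most of it in IRI but not in sham. The mean sum was 4.83 times as high in IRI (201 ± 91.9 RPKM) as in sham (41.7 ± 4.12 RPKM, SD, n = 3 each).

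The mitochondrial chaperonin pair did not pass the test. Hspd1 (HSP60), the barrel of the chaperonin, had 37.9, 65.7 and 62.6 RPKM in IRI, against 55.4, 54.6 and 53.5 RPKM in sham. Hspe1 (HSP10), its lid, had 41.2, 87.5 and 89.9 RPKM in IRI and 58.1, 64.1 and 61.3 RPKM in sham. For both genes IRI 1 was the lowest and IRI 2 and 3 the highest of all libraries, while sham was nearly level. The log2 fold changes were 0.06 ± 0.20 for Hspd1 (adjusted p = 0.816) and 0.29 ± 0.28 for Hspe1 (adjusted p = 0.442). Without IRI 1 both passed, at 0.28 (adjusted p = 0.0408) and 0.59 (adjusted p = 0.00241). With all libraries, 0 of the 2 had an unadjusted p under 0.05, and DESeq2 and limma-voom called neither. Of the 3 pseudogenes, Hspa9-ps1 was tested (44 reads in all IRI libraries, 38 in all sham libraries, no call), and Cct3-ps1 and Dnaja1-ps had 4 and 6 reads in IRI and 2 and 2 in sham.

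**Figure D4:**
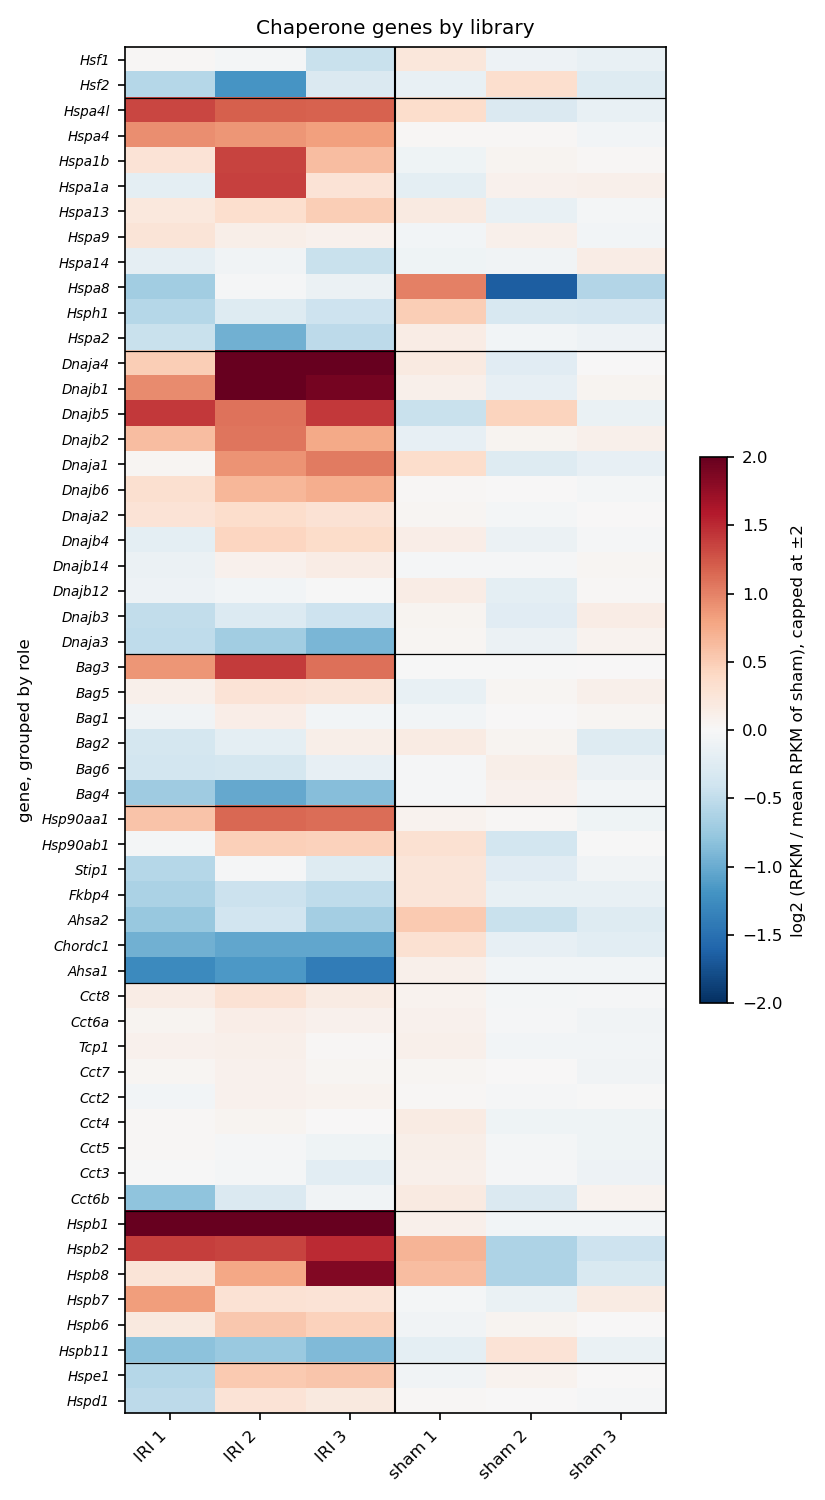
Log2 ratio of the RPKM of each tested member, pseudogenes aside, to its sham mean, capped at ±2, with IRI libraries left and sham libraries right and genes grouped by role. IRI 1 is paler than IRI 2 and 3 for Dnaja4 and Dnajb1, while Hspb1 is at the cap in every IRI library. Sham 1 stands out for Hspa8, and the TRiC block is nearly white.

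Libraries of a group differed in these genes along a recurring line. IRI 1 was the lowest IRI library for 34 of the 55 tested members (61.8%), against 35.3% of all genes tested, and IRI 2 was the highest for 30 (54.5%), against 30.7%. Sham 1 was the highest sham library for 34 members (61.8%), against 38.9% of all genes. Among IRI libraries, the principal cell markers Aqp2 and Fxyd4 were highest in IRI 1 and lowest in IRI 2. Others went otherwise: Scnn1b was highest in IRI 1 and lowest in IRI 3, and Aqp3 and Scnn1g were highest in IRI 3 and lowest in IRI 2. Whether the mix of cells bears on this order was not tested. Set against the mean of the other 2 libraries of its group, IRI 1 was at least 1.3-fold lower for 16 members (29.1%; all genes 16.1%) and sham 1 at least 1.3-fold higher for 11 (20%; all genes 13.1%). IRI 1 stood at 0.276 of that mean for Dnaja4, 0.303 for Hspb1, 0.448 for Dnajb1, 0.461 for Hspa1a and 0.464 for Hspe1. Sham 1 stood at 4.09 times that mean for Hspa8, 2.27 for Hspb2, 2.10 for Hspb8, 1.82 for Ahsa2 and 1.77 for Hsph1. Hspa4, Bag3, Ahsa1 and Chordc1 kept their calls whichever library was left out.

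Paralogs and partners were compared by their ratio within each library, which does not depend on how libraries are scaled. For 12 pairs the log2 ratio of RPKM was tested by an exact two-sided permutation test, whose smallest possible p with 3 against 3 is 0.1 (0.171 after Benjamini-Hochberg adjustment over the 12), so none could pass 0.05. In 7 pairs the groups did not overlap, each at that smallest p. Hsp90aa1 per Hsp90ab1 was 0.0825, 0.0862 and 0.0855 in IRI, against 0.0460, 0.0704 and 0.0512 in sham. The inducible HSP90 thus gained on the constitutive one by 1.54-fold. Reads not aligned uniquely were left out, so the size of a ratio also depends on how much sequence each gene shares. For this pair it may be too low, since Hsp90aa1 shares 47.5% of its transcript stretches with other genes and Hsp90ab1 3.44%. Ahsa1 per Hsp90ab1 was 0.0991, 0.0757 and 0.0643 in IRI and 0.203, 0.288 and 0.226 in sham, 0.332 times the sham ratio. Stip1 per Hsp90ab1 was lower too, at 0.664 times the sham ratio.

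Among HSP70 partners, Hsph1 per Hspa4 was 0.351, 0.445 and 0.423 in IRI, against 1.37, 0.775 and 0.809 in sham, so these HSP110 paralogs shifted against each other in every library. Bag3 per Bag1 was 0.0711, 0.0890 and 0.0815 in IRI and 0.0382, 0.0365 and 0.0358 in sham. Dnajb1 per Dnaja1 was 7.74, 10.7 and 7.504 in IRI and 3.46, 4.38 and 4.79 in sham. Hspb1 per Hspb8 was 17.0, 44.5 and 16.4 in IRI, against 3.37, 7.09 and 5.70 in sham, a 4.501-fold difference. The groups overlapped for Hspa4l per Hspa4 (p = 0.2), Hspa1b per Hspa8 (p = 0.6), Dnaja2 per Dnaja1 (p = 0.4), Hspe1 per Hspd1 (p = 0.3) and Hsf2 per Hsf1 (p = 0.4) in the same exact test.

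**Figure D5:**
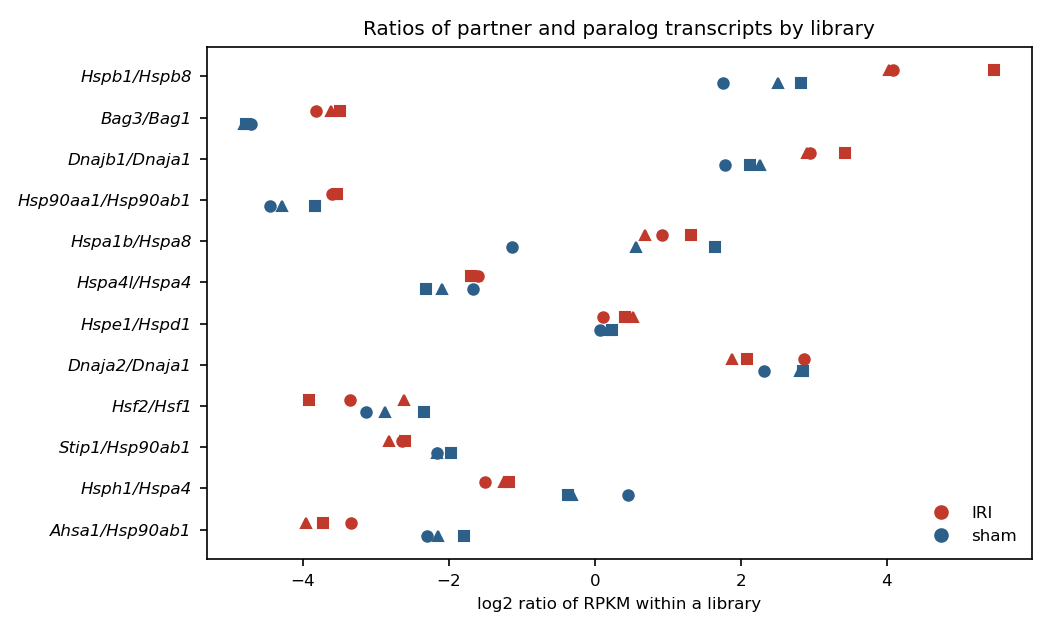
Log2 ratio of RPKM of 2 genes within each library for the 12 pairs, with the IRI point row above the sham row of each pair. Pairs whose colours do not mix, such as Ahsa1/Hsp90ab1 and Bag3/Bag1, are those whose groups did not overlap, and Hspa1b/Hspa8 shows the widest sham spread.

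Genes that work with the members but lie outside the symbol rule moved in both directions. Of 28 further HSP70 and HSP90 co-chaperones, 10 were higher and 4 lower (all genes 24.2% and 21.2%), with a median log2 fold change of 0.23. Fkbp5, an immunophilin of the glucocorticoid receptor complex, had 37.4, 28.6 and 18.3 RPKM in IRI and 9.02, 8.81 and 5.63 RPKM in sham, and rose by 1.88 ± 0.29 (adjusted p = 0.00223). Its relative Fkbp4 fell, as described above, and neither gene's groups overlapped. Dnajc5, the J-domain protein of secretory vesicles, had 95.5, 94.6 and 82.3 RPKM in IRI and 38.5, 39.1 and 35.5 RPKM in sham (1.304 ± 0.097, adjusted p = 2.6e-05). Fnip2, which slows the HSP90 ATPase, rose by 1.504 at a mean of 0.612 RPKM in IRI and 0.222 RPKM in sham. Ppp5c, the HSP90-bound phosphatase, fell by 0.68, Tsc1, an HSP90 co-chaperone of the TSC complex, by 0.51, and Dnajc6, which uncoats clathrin vesicles, by 1.84 at under 0.5 RPKM.

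As TRiC partners, 18 prefoldin and phosducin-like genes were listed. Of these, 16 were found by symbol (Pfdn6 and Uri1 were not) and 15 were tested. Among the tested genes, 2 were higher and 2 lower (median log2 fold change 0.12). Over all genes, 24.2% were higher and 21.2% lower. Rpap3, a scaffold of the R2TP complex that passes clients from HSP90, had 87.7, 131 and 128 RPKM in IRI and 63.9, 58.8 and 52.0 RPKM in sham and rose by 1.03 ± 0.17 (adjusted p = 0.00127). Vbp1, a prefoldin subunit, rose by 0.26, close to the threshold (adjusted p = 0.04998), while Pdrg1, of a prefoldin-like complex, and Pih1d1, the partner of Rpap3, fell by 0.38 and 0.37.

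Of 13 other genes known to be raised by heat shock, all tested, 9 were higher and none lower (all genes 24.2% and 21.2%). Their median log2 fold change was 0.57. Cryab, a small heat shock protein that the symbol rule does not take, had 1124, 2302 and 1933 RPKM in IRI, against 460, 346 and 421 RPKM in sham. It rose by 2.17 ± 0.27 (adjusted p = 0.000532), and its level in each IRI library was above that of any member. Mlf1, a partner of 14-3-3 proteins, rose by 5.46 ± 0.82 and Ier5, a co-activator of Hsf1, by 3.31 ± 0.21, both with all IRI libraries above all sham libraries. For Cryab, as for Hspb1 and Dnajb1, IRI 1 was the lowest and IRI 2 the highest IRI library.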

How the data were processed

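RNA-seq was deposited as read counts per gene for each of the 6 libraries and as one table of RPKM. Libraries were made with the Clontech SMARTER kit, per the labels' protocols. STAR, HTSeq, edgeR and the mouse build mm9 are named in the submitters' processing notes, which give no version. The counts were made by the authors without strand, per the labels' file names. The authors' deposited RPKM equal the counts divided by gene length and by a scaled library total. Entries naming no gene held 49.3% to 50.9% of each library's reads, mostly reads not aligned uniquely (39.9% to 42.4%), and were left out.

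Counts were tested in edgeR 4.0.16 (R 4.3.3; quasi-likelihood, TMM scaling, filterByExpr with a minimum count of 10) over 13881 genes, with a biological coefficient of variation of 19%. Levels, ratios and sums use the deposited RPKM. On simulated counts over 13682 genes, this test called 70 of 100 genes changed 2-fold and 100 of 100 changed 4-fold, all in the right direction, and 2 of 13482 unchanged genes. Every simulated gene had the same coefficient of variation, 19%, and only 200 genes were changed. The real genes differ in their spread, and many more were called, so these rates need not hold for them. Alternatives were other scalings and filters, DESeq2 1.42.0, limma-voom (limma 3.58.1), the replicate number as a block and leaving out each library. Library pairs of a group differed far beyond counting noise, and each library was counted as 1 sample. That excess cannot show whether the libraries came from independent experiments, since technical steps can also produce it. The members, lists and tests were chosen with earlier results of these data known. Library values are given for a preset list of members, the TRiC subunits and the 10 higher and 6 lower called members with the largest change. They are also given for Bag1, Hspb8 and Aqp2, chosen after their values were seen. Up to 3 called genes per direction of each further list are named, with library values for only some of them. Those lists were other co-chaperones, prefoldin and phosducin-like partners, mitochondrial and endoplasmic reticulum chaperones, other heat-shock-inducible genes, immediate-early genes and cell type markers. Shared sequence and exon overlap come from GENCODE M21 transcripts. Coordinates are printed only for RefSeq promoters (GRCm38.p6), since the files use mm9.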

Additional observations from a re-analysis of the deposited data

How the results depend on the processing

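Under 14 alternatives, 15 of the 22 called members kept their call and direction in every one and none reversed; the other 7 were Hspa1b, Hspa2, Hspa13, Dnaja2, Dnaja4, Fkbp4 and Hspb6. Members called higher and lower were 15 and 7 in the analysis reported, 17 and 8 with DESeq2, 14 and 7 with limma-voom, 12 and 8 when scaled to the upper quartile, 11 and 11 with library size alone, and 11 and 7 with every gene with a read. Leaving out each library gave 10 to 21 higher, the most without IRI 1, and 6 to 9 lower. The median log2 fold change of all genes moved by -0.122 under the upper-quartile setting and by -0.201 under library size, and the split of all calls was 2748 higher to 3789 lower and 2400 to 4337, against 3364 to 2948. Log2 fold changes that turned negative under the upper-quartile setting and library size were, among members named by rule, Cct2 -0.0503 and -0.132, Cct4 -0.0541 and -0.136, Cct5 -0.107 and -0.187, Cct7 -0.0253 and -0.105, Tcp1 -0.0167 and -0.0972, Hspd1 -0.0593 and -0.149, and Cct6a -0.0736 with library size alone; among other members Bag1 (-0.0794 and -0.159), Dnajb14 (-0.0418 and -0.124) and Hspa9 (-0.00313, library size alone) did too. Cct5 was also -0.0217 with every gene with a read, and Hspa8 was 0.16 with limma-voom. Over single libraries left out, the log2 fold change ran from -0.205 to 0.0293 for Hsf1, from -0.64 to 0.79 for Hspa8, from -0.125 to 0.0106 for Cct3, from -0.00891 to 0.131 for Cct4, from -0.0606 to 0.0536 for Cct5 and from -0.103 to 0.284 for Hspd1. The log2 ratio of Hspa1b to Hspa8 differed by -0.13 to 1.26, negative without sham 1. The cause of these moves was not tested.

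Same-numbered IRI and sham libraries are not said to be paired. Their deviations from the group means correlated at 0.182, 0.0952 and 0.178, not all over 0.1, although each library correlated best with its own number, a hint from the data and not the design. With the number as a replicate block, 13 members were higher, 7 lower and 6463 genes called (6312 without it); Dnaja4 (adjusted p = 0.0762) and Hspa13 (0.0567) lost their calls and Hspa8 was 0.19. Groups of 3 limit what can be called: exact tests cannot go below p = 0.1, smaller changes can be missed, and genes that share sequence depend on how reads were assigned.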

Other observations

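Chaperones of the endoplasmic reticulum and of mitochondria lie outside the symbol rule, and no test compared the compartments. Of 16 endoplasmic reticulum chaperones, 10 were higher in IRI and none lower, with a median log2 fold change of 0.42 (edgeR's quasi-likelihood test, Benjamini-Hochberg adjusted over all genes; background 24.2% higher and 21.2% lower). Hspa5 (BiP), the HSP70 of that compartment, had 617, 1118 and 1386 RPKM in IRI libraries 1, 2 and 3, against 472, 301 and 364 RPKM in sham libraries 1, 2 and 3, and rose by 1.496 ± 0.312 (adjusted p = 0.00686). IRI 1 was again the lowest IRI library and sham 1 the highest sham library. Manf, a secreted stress protein, rose by 1.12 ± 0.32 and Dnajb9, a J-domain partner of Hspa5, by 0.98 ± 0.27. Of 12 mitochondrial chaperones and proteases beside Hspa9, Hspd1 and Hspe1, 1 was higher and 5 lower, with a median of -0.27. Hscb, a J-domain protein of iron-sulfur cluster assembly, had 9.69, 9.52 and 11.5 RPKM in IRI, against 23.4, 30.7 and 28.3 RPKM in sham, and fell by 1.38 (SE 0.15, adjusted p = 0.000165). Trap1, the mitochondrial HSP90, fell by 0.32 and Clpp, a matrix protease, by 0.30, while Grpel2, an exchange factor for Hspa9, rose by 1.18 ± 0.14.

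Among the immediate-early genes, the largest changes were in Socs3 (4.59 ± 0.31), Atf3 (3.54 ± 0.59) and Klf6 (2.86 ± 0.24), each with every IRI library above every sham library. Of the 6 macrophage and dendritic cell markers tested, Cd68 and Lyz2 were higher and 4 did not pass: Cd74 (0.40, adjusted p = 0.69), Csf1r (0.29), C1qa (0.12) and C1qb (0.07). Cd68 had 21.7, 36.6 and 18.8 RPKM in IRI and 0.384, 0.828 and 0.681 RPKM in sham. Of the 7 neutrophil markers, S100a8 had 4.60, 1.85 and 0 RPKM in IRI and 0 in every sham library, and S100a9 had 52 reads in all IRI libraries and 0 in sham. The other neutrophil markers had at most 3 reads in either group.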
